A study of Mus musculus with 2 samples.

Results

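The core genes of the circadian clock were compared between 2 RNA-seq libraries of mouse pancreatic islets, the small endocrine organs scattered through the exocrine pancreas, made up mainly of insulin-producing β-cells. The labels name 1 library KO, from mice that lack the DNA sensor cGAS in β-cells, and 1 library WT, from wild-type mice. The islets of both were freed with collagenase, hand-picked and kept in serum-containing RPMI-1640, per the labels' protocols. The hour of collection, the light schedule, the time in culture, the age of the mice, the number of animals behind a library and the driver of the deletion are not stated in the labels. The clock genes were chosen by symbol, as Arntl (also called Bmal1), Clock, Per1, Per2, Per3, Cry1, Cry2, Nr1d1, Nr1d2 and Dbp. All 10 were among the 17245 gene symbols of the deposited table, and all 10 passed a floor of 1 FPKM in either library, as 12428 genes did.

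The mammalian clock is a feedback loop of transcription. BMAL1, the product of Arntl, pairs with CLOCK and drives genes through E-boxes in their promoters, among them the Per and Cry genes, whose proteins return to block that drive. A second loop runs through Nr1d1 and Nr1d2, which encode the nuclear receptors REV-ERBα and REV-ERBβ and repress Arntl at ROR elements. Dbp carries the rhythm to output genes through D-boxes. In mouse peripheral tissues, transcripts read from E-boxes and D-boxes peak broadly in the opposite part of the day to Arntl and other ROR-element transcripts. In mouse β-cells the clock is known to be needed for normal insulin secretion.

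The promoters of 4 clock genes are shown because each holds the letters of an element through which the loop is known to read clock genes. RefSeq promoter windows (build GRCm38.p6, 250 bases before to 50 bases after a transcript start) were found for 9 of the 10 genes, all but Per2. The letters searched on both strands were the E-box CACGTG, its variant CACGTT, the D-box TTANGTAA, the ROR element (an A-rich start and then AGGTCA or GGGTCA), and the cAMP element TGACGTCA. Capitals mark every match to these letters, and each line reads 5′ to 3′ on the strand of the gene.
Per3: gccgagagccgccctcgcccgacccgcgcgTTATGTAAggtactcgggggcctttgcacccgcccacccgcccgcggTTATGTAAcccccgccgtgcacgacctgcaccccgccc
Per1: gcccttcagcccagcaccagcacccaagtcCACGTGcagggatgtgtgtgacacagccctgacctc
Cry1: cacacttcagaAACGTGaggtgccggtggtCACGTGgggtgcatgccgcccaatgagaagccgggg
Arntl: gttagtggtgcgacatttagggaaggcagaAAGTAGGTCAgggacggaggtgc

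The Per3 stretch lies at chr4:151044786-151044900 on the minus strand and holds 2 D-boxes, 205 and 158 bases before the transcript start. The Per1 stretch (chr11:69098753-69098818, plus strand) and the Cry1 stretch (chr10:85185079-85185144, minus strand) hold 1 E-box each, 166 and 60 bases before the start, and the Cry1 stretch also holds the E-box variant, 79 bases before the start. The Arntl stretch (chr7:113207508-113207560, plus strand) holds 1 ROR element that begins at base 28 of the transcript. The variant CACGTT, read as AACGTG on the strand of the gene, was found in the windows of Cry1, Cry2 and Nr1d1, and no matches overlapped. The windows of Clock, Nr1d2 and Dbp held none of the 5 elements, and no cAMP element was found in any of the 9 genes. Over all 32851 promoter windows, an E-box was present in 7.15%, its variant in 4.68%, a D-box in 2.32%, a ROR element in 0.435% and a cAMP element in 1.79%. A match is a description of the letters, and its absence says nothing of sites outside these windows.

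The unit of the table is FPKM, the reads (or fragments) of a gene divided by its length in kilobases and by the library total in units of 1000000. Whole reads could be recovered from the values for 17178 genes. They rest on library totals that were inferred from the values, 14537660 reads for KO and 19097001 for WT. The smallest reads recovered summed to 91.3% of that total for KO and 90.1% for WT. The 95% intervals given below come from the smallest reads that give a gene's values, so they may be too wide, and they cover counting error only. With 1 library per genotype no difference has a replicate check and no test was made. Cgas itself was at 0.521 FPKM in KO-labelled islets and 0.205 FPKM in WT islets, a ratio of 2.55 (1.35 to 4.98), on at least 31 and 16 reads. Cgas RNA was therefore not lower where the label says knockout. The deletion is named for β-cells and the RNA is of whole islets, so this value cannot decide whether the label holds. These islets are called KO-labelled throughout, and every direction is between the libraries as labelled.

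Clock genes differed from each other in level over a wide range, and Cry2 was the highest of them in both libraries. In the library labelled KO the order ran from Cry2 at 26.2 FPKM through Per2 at 10.7 FPKM to Arntl at 1.18 FPKM, with Nr1d1, Per1 and Nr1d2 between 7.15 and 7.45 FPKM and with overlapping intervals. In the WT library Cry2 was at 25.9 FPKM, followed by Nr1d1, Clock and Nr1d2, and Arntl was again the lowest at 1.18 FPKM. Intervals of Nr1d1 and Clock overlapped in WT islets, as did those of Per2 and Per1. The low place of Arntl in this order depends on the gene length behind its FPKM. The values of Arntl came out whole only with a length of 19267 nucleotides or a multiple of it, against 2976 nucleotides for its longest coding transcript and 7523 nucleotides for all its exons in the GENCODE M21 annotation. Per kilobase of that transcript, its 330 and 435 reads would give at least 7.63 reads per 1000000 in KO-labelled islets and 7.65 in WT islets, close to the 7.45 FPKM of Nr1d1 in KO-labelled islets. The length cancels in a ratio between the libraries.

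**Figure D1:**
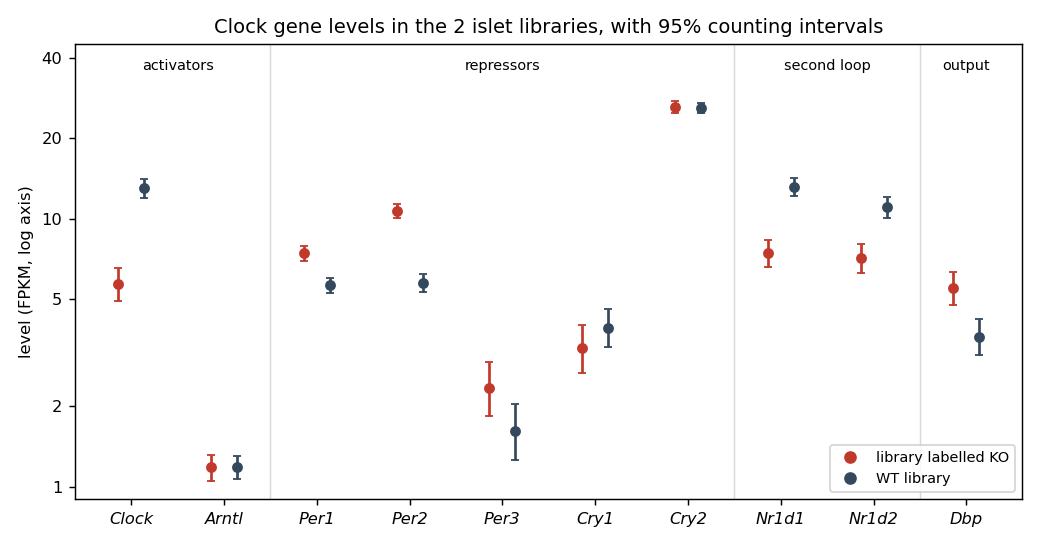
Level in FPKM (log axis) of each clock gene in KO-labelled islets (left point of each pair) and the WT library (right point), with 95% Poisson counting intervals as bars, grouped by role. Clock, Nr1d1 and Nr1d2 lie lower in KO-labelled islets and Per1, Per2 and Dbp lie higher (Per1 and Dbp not so after correction for GC content and length), while the intervals of Per3, Cry1, Arntl and Cry2 overlap between the libraries.

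The 2 activators of the loop behaved differently. Arntl was at 1.18 FPKM in both libraries, a ratio of 0.997 (0.861 to 1.15), so a difference could not be detected at this depth. Clock, the histone-acetylating partner of BMAL1, was at 5.70 FPKM in KO-labelled islets and 13.0 FPKM in WT islets, on at least 206 and 617 reads. Clock was thus 2.28-fold lower in KO-labelled islets (1.94 to 2.68), the widest difference among the 10 genes in the values as deposited. The Clock gene lies at chr5:76209868-76305603 in RefSeq on GRCm38.p6, the build of the gene positions given here. On the scale of log2((KO + 1)/(WT + 1)), which adds a pseudocount of 1 FPKM and understates the change of low genes, Clock was at -1.06 and lay below 96.9% of the 12428 kept genes. It was the single clock gene past a 2-fold difference on that scale. Thus 1 of 10 was lower and none was higher past 2-fold, where 3.88% of all kept genes were lower and 6.98% higher, together 10.9%. The members' share of 10% is close to that background. Clock has a long transcript of low GC content, 9744 nucleotides with 40.9% GC. With the trend of the log2 difference on GC content and transcript length removed, Clock was at -0.55, within 2-fold, and the share of the trend in its difference was not tested further.

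The 3 Per genes, whose proteins bring the loop to a close, were all higher in KO-labelled islets, except that Per1 was level after the correction for GC content and length. Per2 was at 10.7 FPKM in KO-labelled islets and 5.76 FPKM in WT islets, a ratio of 1.87 (1.69 to 2.06), and its log2 difference of 0.80 lay above that of 87.1% of kept genes. Per2 lies at chr1:91415977-91459351. Per1 was at 7.45 FPKM in KO-labelled islets and 5.65 FPKM in WT islets, a ratio of 1.32 (1.20 to 1.45). Per3 was at 2.34 FPKM in KO-labelled islets and 1.62 FPKM in WT islets, a ratio of 1.44 (1.03 to 2.03) that rests on at least 77 and 70 reads. The interval of Per3 includes 1.06, the median ratio of the kept genes above 0 in both libraries. Per2 stayed between 0.55 and 0.89 on the log2 scale in every alternative setting. Per1 was at -0.01 after that correction, and Per3 was at 0.39.

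The Cry genes, which encode the partners of the PER proteins, showed smaller differences. Cry1 was at 3.29 FPKM in KO-labelled islets and 3.92 FPKM in WT islets, a ratio of 0.838 (0.641 to 1.09), so a difference could not be detected at this depth. Cry2 was at 26.2 FPKM in KO-labelled islets and 25.9 FPKM in WT islets, a ratio of 1.01 (0.947 to 1.08). Cry2 has the most reads of the 10, at least 1576 and 2045, so its interval is the narrowest. Its log2 difference of 0.02 changed sign with scaling, to -0.13 with both libraries brought to the same sum of 1000000 and -0.23 after correction for GC content and length.

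Both Rev-erb genes, the repressors of the second loop, were lower in KO-labelled islets. Nr1d1 was at 7.45 FPKM in KO-labelled islets and 13.1 FPKM in WT islets, 1.76-fold lower (1.54 to 2.03), with a log2 difference of -0.74. Nr1d2 was at 7.15 FPKM in KO-labelled islets and 11.1 FPKM in WT islets, 1.55-fold lower (1.33 to 1.81), with a log2 difference of -0.57. Their differences lay above those of 8.5% and 14.3% of kept genes. The Nr1d1 gene lies at chr11:98767932-98775377 and Nr1d2 at chr14:18204056-18239106. Nr1d1 shares 263 exonic bases with Thra, a thyroid hormone receptor gene on the opposite strand, and whether strand was used in counting is not given. Thra was at 16.3 FPKM in KO-labelled islets and 16.6 FPKM in WT islets, a ratio of 0.984 (0.901 to 1.07). After correction for GC content and length, Nr1d1 was at -1.13 and became the single clock gene past 2-fold, while Nr1d2, whose transcript has 41.8% GC, was at -0.18.

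Dbp, the D-box activator that is a direct E-box target, was at 5.52 FPKM in KO-labelled islets and 3.63 FPKM in WT islets, a ratio of 1.52 (1.23 to 1.87). Dbp has the most GC-rich transcript of the 10, at 61.6% GC, and its log2 difference of 0.49 was at -0.18 after correction for GC content and length. The gene lies at chr7:45705100-45710203 and shares 539 exonic bases with Sphk2, a sphingosine kinase gene on the opposite strand, which was at 15.2 FPKM in KO-labelled islets and 12.1 FPKM in WT islets (ratio 1.26, 1.15 to 1.38). How reads in the shared bases were assigned is not given.

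**Figure D2:**
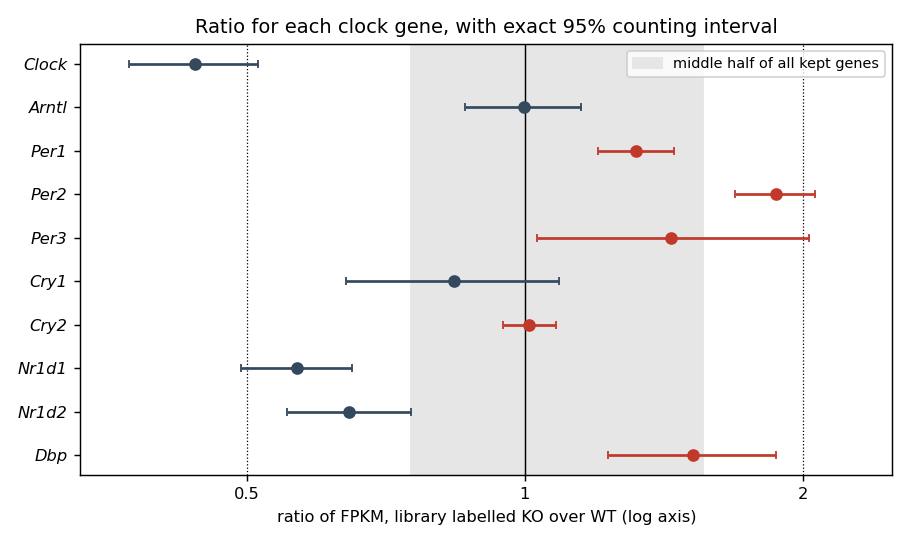
Ratio of FPKM in KO-labelled islets over WT for each clock gene (log axis), with the exact 95% counting interval, dotted lines at 2-fold, and a grey band between the quartiles of all kept genes, 0.753 and 1.56. Clock, Nr1d1 and Nr1d2 lie left of the band and Per2 lies right of it.

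Whether the libraries differed in clock phase, as islets taken at different hours would, was looked at through 2 sets of genes. The sets are known to peak broadly in opposite parts of the day. The 7 genes read from E-boxes and D-boxes had a median log2 difference of 0.34, against 0.08 for all kept genes. Arntl, Clock and Cry1, grouped here as the 3 ROR-element genes, had a median of -0.20. Between the medians of the 2 sets lay 0.55. These medians are the values of Per1 and Cry1, and the ratio interval of Cry1 includes 1. The E-box and D-box set did not move as a block, however. Of its genes 4, the Per genes and Dbp, were between 0.34 and 0.80, while Nr1d1 and Nr1d2 were lower. Genes of 1 set need not peak at the same hour, and a difference in phase was not tested. In the ROR-element set Clock and Cry1 were below 0, with Arntl level. The grouping of Cry1 is not exclusive, because the Cry genes are also driven through E-boxes. Its promoter window held an E-box and no ROR element, and that of Clock held none of the elements searched. After correction for GC content and length, the medians were -0.18 for the E-box and D-box set and -0.29 for the ROR-element set, and the distance between them was 0.11.

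Quotients of 2 genes within a library do not depend on how the libraries were scaled. The quotient of Dbp over Arntl was 4.68 in KO-labelled islets and 3.07 in WT islets, 1.53 times as high (1.19 to 1.96). That of Per2 over Arntl was 9.12 in KO-labelled islets and 4.87 in WT islets, 1.87 times as high (1.57 to 2.23), and those of Per1 and Per3 over Arntl were 1.32 and 1.45 times as high. The quotient of Nr1d1 over Arntl pointed the other way, at 6.33 in KO-labelled islets and 11.1 in WT islets, 1.76-fold lower (1.44 to 2.14), as did that of Nr1d2 over Arntl, 1.54-fold lower (1.25 to 1.90). Arntl itself had a ratio of 0.997, so these quotients nearly repeat the ratios of the single genes and are no separate check. Relative to Arntl, too, the outputs of the E-box did not give 1 direction, and a difference in phase was not tested. After correction for GC content and length, the log2 distances of Dbp and Per1 from Arntl were -0.28 and -0.11, and those of Per2 and Per3 were 0.62 and 0.29.

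The split within the E-box set was largest in quotients over Nr1d1, which were chosen after the values were seen. Per2 over Nr1d1 was 1.44 in KO-labelled islets and 0.438 in WT islets, 3.29 times as high (2.78 to 3.89). Dbp over Nr1d1 was 0.740 in KO-labelled islets and 0.276 in WT islets, 2.68 times as high (2.10 to 3.43). On the log2(FPKM + 1) scale the distance between Dbp and Nr1d1 was 1.24, and 0.95 after correction for GC content and length, whereas that between Dbp and Arntl was 0.50 before the correction. Nr1d2 over Nr1d1 had an interval that includes 1, at 1.14 times (0.930 to 1.39). Its log2 distance of 0.18 was 0.95 after correction for GC content and length, the same as that of Dbp from Nr1d1. With the correction, Nr1d1 was thus as far from Nr1d2 as from Dbp.

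Other genes tied to the same elements were mixed in direction as well. Of 8 further E-box and D-box outputs 7 were kept, 4 above 0 and 3 below, with a median of 0.03 and none past 2-fold. Tspan4, a tetraspanin that cycles in many mouse organs, was at 2.63 FPKM in KO-labelled islets and 1.11 FPKM in WT islets (log2 difference 0.78), and 0.14 after correction for GC content and length. Bhlhe40 and Bhlhe41, paired repressors that compete at E-boxes, differed in opposite directions. Bhlhe40 was at 7.03 FPKM in KO-labelled islets and 4.22 FPKM in WT islets, a ratio of 1.66 (1.41 to 1.97), and Bhlhe41 was at 5.21 FPKM in KO-labelled islets and 9.15 FPKM in WT islets, 1.76-fold lower (1.50 to 2.06). The log2 difference of Bhlhe41 was -0.71, and -0.41 after correction for GC content and length. Usp2, a deubiquitinase, had a log2 difference of 0.39. Tef, a relative of Dbp, was level at 7.97 FPKM in KO-labelled islets and 7.79 FPKM in WT islets (ratio 1.02, 0.927 to 1.13). Ciart, an E-box repressor also called Chrono, did not reach the floor, at 0.957 FPKM in KO-labelled islets and 0.331 FPKM in WT islets, a ratio of 2.89 (1.53 to 5.73) on at least 33 and 15 reads.

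The 2 other ROR-element genes listed lay on opposite sides of 0. Nfil3, which opposes Dbp at D-boxes, was at 13.3 FPKM in KO-labelled islets and 7.74 FPKM in WT islets, a ratio of 1.71 (1.54 to 1.90). Npas2, a relative of Clock that can replace it, was at 1.68 FPKM in KO-labelled islets and 2.24 FPKM in WT islets, a ratio of 0.751 with an interval from 0.523 to 1.07. Their log2 differences were 0.71 for Nfil3 and -0.27 for Npas2, against a median of -0.20 for Arntl, Clock and Cry1. After correction for GC content and length, Nfil3 was at 0.34 and Npas2 at -0.32.

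**Figure D3:**
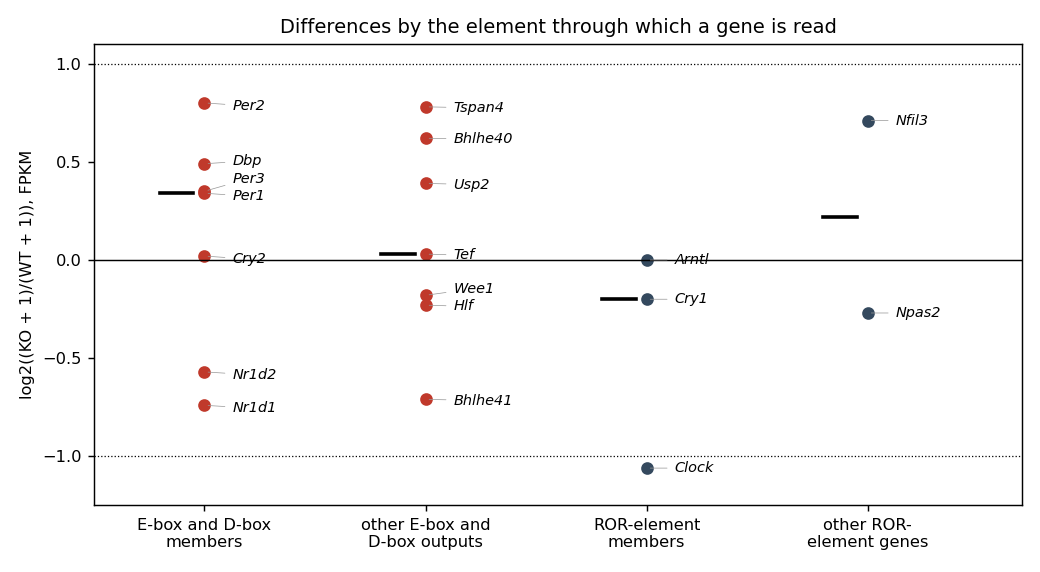
Difference on the log2((KO + 1)/(WT + 1)) scale of FPKM for kept genes read from E-boxes and D-boxes (red) and from ROR elements (blue), clock genes beside other genes, with the median as a short black bar and dotted lines at 2-fold. Each column but that of Arntl, Clock and Cry1 holds genes on both sides of 0.

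Of all the other clock genes listed, Fbxw11 was the 1 gene past 2-fold. The 4 lists of them overlap and, with each gene counted once, held 36 genes. Of these 34 were kept, 12 above 0 and 22 below, with a median of -0.20. The list of 15 clock transcription factors and repressors includes Npas2, Nfil3, Bhlhe40, Bhlhe41, Tef, Hlf and Ciart, which were also counted above. From this list 13 were kept, 6 above 0 and 7 below, with a median of -0.10 and none past 2-fold. The widest were Arntl2, a paralogue of Arntl, at 0.83 on at least 25 and 12 reads, the co-repressor deacetylase Hdac3 at 0.78, and Timeless at 0.72. All 19 kinases, ubiquitin ligases and related genes, with Usp2 again among them, were kept. Of these 1 was past 2-fold lower, beside 3.88% of all kept genes. Their median was -0.31, and -0.12 with none past 2-fold over 18 genes after correction for GC content and length. Fbxw11, a ligase subunit that marks PER proteins for destruction, was at 10.5 FPKM in KO-labelled islets and 23.5 FPKM in WT islets, 2.23-fold lower (2.04 to 2.44). Fbxw11 was at -0.93 after correction for GC content and length. Csnk1a1, a casein kinase, and Gsk3b, a glycogen synthase kinase, both chosen after their values were seen, were at -0.66 and -0.76, and at -0.35 and -0.37 after correction for GC content and length.

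Per1 and Per2 are also known to respond directly to cAMP, serum, glucocorticoids and heat shock, so genes of those responses are given beside them. Of 14 kept CREB and serum immediate-early genes other than Per1, 7 were higher past 2-fold, none was lower past it, and the median was 0.96. Over all kept genes, 6.98% were higher and 3.88% lower past 2-fold. Fos had 42.7 FPKM in KO-labelled islets and 5.59 FPKM in WT islets, and Egr1 had 17.0 FPKM in KO-labelled islets and 3.27 FPKM in WT islets. Jun, Fosb, Ier2, Nr4a1 and Atf3 were at log2 differences of 1.89, 1.77, 1.49, 1.09 and 1.02. After correction for GC content and length, 4 of the 14 were past 2-fold higher and the median was 0.60. With that correction, 394 of 12206 kept genes were past 2-fold higher. Per1, at 0.34, lay below the median of this list.

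Glucocorticoid-induced genes were not higher as a list. Of 8 kept genes other than Per1, 4 were above 0 and 4 below, with a median of 0.04. Dusp1 is on this list and also on the immediate-early list. The kinase gene Sgk1 alone was past 2-fold higher, beside 6.98% of all kept genes, at 15.1 FPKM in KO-labelled islets and 6.42 FPKM in WT islets. Tsc22d3, which encodes the glucocorticoid-induced leucine zipper, was at 0.64, and Klf9, another such gene, was at -0.87, both chosen after their values were seen. After correction for GC content and length, the median of the 8 was -0.08, with 1 past 2-fold higher and 1 lower. Beside these, 394 of 12206 kept genes were past 2-fold higher and 354 lower with the correction. Of 10 heat-shock factor targets 3 were past 2-fold higher, beside 6.98% of all kept genes. They were Hspa1a (2.31), Hspa1b (2.25) and Hspb1 (2.07), and the list median was 0.05. With the correction, 3 of the 10 were past 2-fold higher and the list median was -0.15. Hspa1a and Hspa1b are near-identical copies, so their single values are uncertain. The part of these responses in the Per1 and Per2 differences was not tested.

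The clock is known to run in many cell types, and marker RNA of several islet cell types differed between the libraries. All 10 endothelial markers were above 0, and 5 were past 2-fold higher. Their summed levels were 695.6 FPKM in KO-labelled islets and 303.2 FPKM in WT islets. All 10 macrophage markers were above 0 as well, and 6 were past 2-fold higher. Their summed levels were 356.1 FPKM in KO-labelled islets and 153.2 FPKM in WT islets. Of 10 acinar markers 9 were kept and all 9 were past 2-fold lower, with summed levels of 119.8 FPKM in KO-labelled islets and 1920.4 FPKM in WT islets. Of 10 β-cell markers 2 were above 0 and 8 below, with 4 past 2-fold lower and 1, Ins1, past 2-fold higher. Their summed levels were 436821.5 FPKM in KO-labelled islets and 396369.2 FPKM in WT islets. These sums are nearly all from the close paralogues Ins1, which was higher in KO-labelled islets, and Ins2, which was lower. Of 9 alpha, delta and PP cell markers 1 was past 2-fold higher, Pyy, and 6 were above 0, with summed levels of 45182.7 FPKM in KO-labelled islets and 38799.8 FPKM in WT islets. Of all 12428 kept genes, 6766 were above 0, 6.98% were past 2-fold higher and 3.88% past 2-fold lower. After correction for GC content and length, past 2-fold were 3 endothelial and 1 macrophage markers higher, 9 acinar and 5 β-cell markers lower, and no alpha, delta or PP cell marker. With that correction, 394 of 12206 kept genes were past 2-fold higher and 354 lower. No marker of these lists was at 0 in either library. In whole islets, fewer cells of a type and less RNA per cell cannot be told apart, and the part of cell make-up in the clock gene differences was not tested. With 1 library per genotype, the hour of collection, the handling of the islets and the genotype cannot be told apart.

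**Figure D4:**
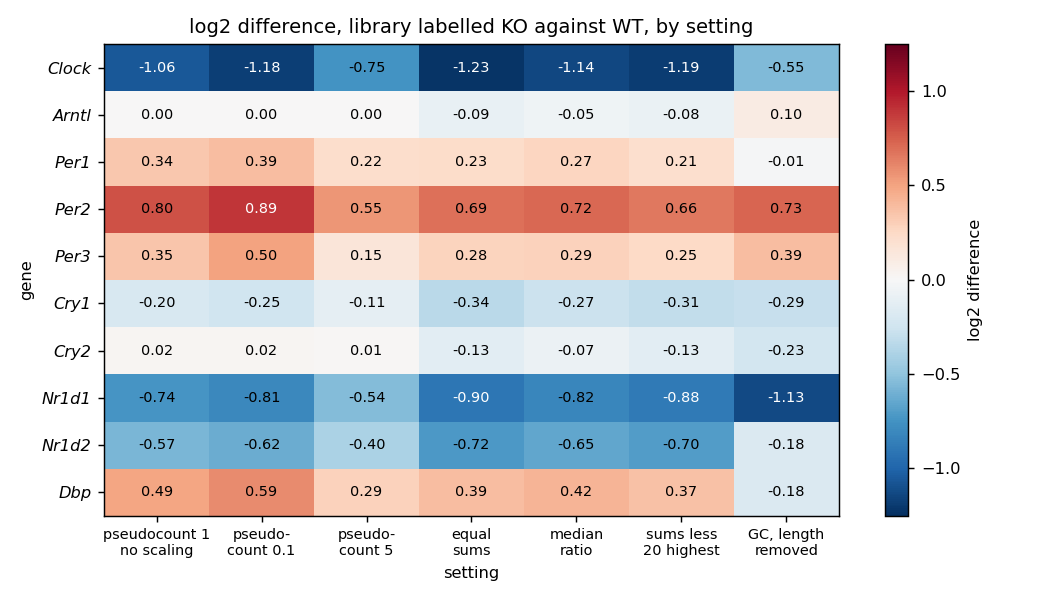
Difference of each clock gene on the log2 scale, library labelled KO against WT, under the pseudocount, scaling and trend settings named below the columns, with red for higher and blue for lower in KO-labelled islets. Clock, Cry1, Nr1d1 and Nr1d2 are below 0 and Per2 and Per3 above 0 in every column, while Per1 and Dbp are at -0.01 and -0.18 in the last.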

How the data were processed

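Islet RNA of KO and WT mice was sequenced, 1 library each, grouped by genotype label. A SMARTER kit for mRNA was used, per the labels' protocols. The authors deposited FPKM values in 1 table, a column for each library. The submitters' processing notes name the build mm10 (GRCm38). An aligner, counter, annotation, strand setting or filter was not given in the sources used here.

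FPKM values were used unscaled. Differences are log2((KO + 1)/(WT + 1)), kept at 1 FPKM in either library and called at 2-fold. Whole reads were recovered as FPKM × length × library total, with lengths of 60 to 30000 nucleotides, which worked for 99.6% of genes (tolerance 1e-05 of a read plus 1e-09 of the reads) and for 2.10% of 999 shuffled pairs. Intervals are exact Clopper-Pearson for ratios, exact Poisson for levels and Wald for quotients, all at 95%. The library totals, inferred from the values and not stated by the authors, were 14537660 reads for KO and 19097001 for WT. Reads without molecular identifiers are not independent molecules. With FPKM as the unit and no replicate, no count test was made. The GC and length correction removed lowess trends (fraction 0.3, 3 iterations) over 12206 of 12428 kept genes (98.2%), from the longest coding GENCODE M21 transcript. The procedure was tested on simulated data. Python 3.11.15, numpy 2.4.6, pandas 2.3.3, scipy 1.17.1 and statsmodels 0.14.6 were used.

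The 10 genes and all lists were chosen with earlier results of these data known. A gene of the lists is not reported here and was left out of their counts and medians. All 10 are named, and of each other list but those of cell type markers, which are given by counts and sums, the genes past 2-fold or, where none was, up to 4 with the widest difference. Tef, Ciart, Csnk1a1, Gsk3b, Tsc22d3, Klf9, Thra and Sphk2 were chosen after their values were seen. With 2 libraries a pattern is 1 difference, so genes of like pattern were not looked for.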

Additional observations from a re-analysis of the deposited data

How the results depend on the processing

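No paired analysis was possible because there is 1 library per genotype. Of the 10 clock genes, 1 was past 2-fold in all settings but a pseudocount of 5 FPKM, which left 0. It was Clock, except with the GC and length trend removed, where it was Nr1d1. Of the other clock genes, 1 was past 2-fold at first, 4 with a pseudocount of 0.1 FPKM (Arntl2, Timeless, Tspan4 and Fbxw11), and 0 with a pseudocount of 5 FPKM or the trend removed. Over all kept genes 1350 were called, 2272 with a pseudocount of 0.1 FPKM, 486 with one of 5 FPKM and 748 with the trend removed. Higher genes made up 64.3% of these calls, 46.5% after scaling to a sum of 1000000, 52.0% after scaling by the median ratio, 43.7% after equal sums without the 20 highest genes and 52.7% with the trend removed. The E-box and D-box median of 0.34 was -0.18 with the trend removed. The ROR-element median of -0.20 was -1.06 with a floor of 5 FPKM, which leaves Clock alone. The distance of 0.55 between these medians was 0.26 with a pseudocount of 5 FPKM, 1.24 with the floor of 5 FPKM and 0.11 with the trend removed. The 3 scalings kept it between 0.53 and 0.56, as they must, because 1 factor per library cancels in such a distance but for the pseudocount. Leaving out Nr1d1 and Dbp, which share exons with another coding gene, an alternative chosen after seeing the data, left it at 0.55. That outcome was fixed, because Nr1d1 lay below and Dbp above the E-box and D-box median, so it is no check. Among the clock genes whose values are given, low read numbers limit Per3, Cry1, Npas2, Arntl2, Usp2, Tspan4 and Ciart most. Of the immediate-early genes past 2-fold, Fosb rests on at least 105 reads in KO-labelled islets and 15 in WT islets. Atf3 rests on at least 85 and 36.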
